A study of Mus musculus with 12 samples.

Results

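Rn45s, Rmrp and Rpph1 are genes of structural RNAs, the precursor of ribosomal RNA and the RNA parts of 2 cleaving ribonucleoproteins. They are 3 of the 24421 genes in a count table from mouse embryonic fibroblasts (MEFs). They were chosen by name, with their shares of the counts and their levels across the groups in view, so those values are given as a description with no test. All 3 passed the filter on low counts, among 15220 genes tested.

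The study asked what the transcription factors TFEB and TFE3 do in the response to DNA damage. The 4 groups held 3 libraries each and crossed 2 genotypes with a treatment. Null cells, the control genotype and taken here as the wild type of the paper, and TFEB/TFE3 double knockout (DKO) cells made by CRISPR editing were either untreated or given 100 µM etoposide for 8 hours. Etoposide traps topoisomerase II on DNA and leaves strand breaks. The labels call the control cells untreated, whereas the paper's methods name DMSO as the control treatment. The paper describes the MEFs as immortalized with SV40. The libraries are not described as coming from separate lines of a genotype, so effects of the knockout and differences between cell lines cannot be told apart. The comparisons below ask how etoposide moved the RNAs in each genotype, how the genotypes differed with and without etoposide, and whether the response differed between genotypes (the interaction).

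Each untreated Null library held between 66956083 and 83970210 counts on genes, and each untreated DKO library between 66749645 and 104120871. After etoposide the totals lay between 63286195 and 76125320 in Null and between 45577023 and 94388705 in DKO libraries. The largest half-width of a 95% Wilson interval for a share reported here was 0.332% of that share. These intervals cover counting error only, since reads amplified by PCR are not independent molecules.

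The targeted genes were read first. Tfeb stood at 38.9, 39.2 and 42.1 CPM (counts on genes brought to a common library size with TMM scaling) in untreated Null libraries and at 4.60, 6.09 and 4.68 CPM in untreated DKO libraries. After etoposide it stood at 11.4, 10.2 and 10.4 CPM in Null and at 1.92, 1.61 and 2.20 CPM in DKO libraries. Every DKO library was thus below every Null library of the same treatment for Tfeb. The log2 fold change of Tfeb in DKO against Null was -2.94 ± 0.09 (SE) untreated (adjusted p = 1.05e-14) and -2.46 ± 0.12 after etoposide (adjusted p = 5.06e-12; edgeR quasi-likelihood test, Benjamini-Hochberg, 3 libraries a group). Tfe3 transcripts remained: 115, 110 and 114 CPM in untreated Null, 94.1, 93.1 and 91.0 CPM in untreated DKO, 68.5, 69.6 and 68.1 CPM in etoposide-treated Null, and 70.7, 71.2 and 63.4 CPM in etoposide-treated DKO libraries. For Tfe3 the groups differed in untreated cells, by -0.29 ± 0.04 on the log2 scale (adjusted p = 8.68e-06), and overlapped after etoposide at -0.01 ± 0.04 (adjusted p = 0.871). Counts over a whole gene do not show whether a transcript still encodes the protein. Such p-values, from the fit over all genes, measure the spread between these libraries only, and an exact permutation test of 3 against 3 libraries could not go below 0.1.

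The cells carried fibroblast transcripts in all groups. All 10 fibroblast markers were counted, with a summed level of 7122 ± 59.3 CPM (SD, n = 3) in untreated Null, 11745 ± 322 CPM in untreated DKO, 3991 ± 53.3 CPM in etoposide-treated Null and 5197 ± 167 CPM in etoposide-treated DKO cells, and Vim was the most abundant, except in etoposide-treated DKO cells, where it was Fn1. Thy1 was under 1 CPM in both DKO groups and Dcn in both Null groups. The 6 leukocyte markers summed to 1.99, 2.12, 13.9 and 3.94 CPM in the same order of groups, mostly Cd68, with Ptprc, Adgre1, Csf1r, Lyz2 and Cd3e each under 1 CPM. The 6 epithelial markers summed to 2.60, 5.36, 3.76 and 2.25 CPM, led by Krt8 in untreated cells and by Cdh1 after etoposide. Low sums were the rule for cells other than fibroblasts. The 4 endothelial markers summed to 0.130, 0.133, 2.54 and 1.10 CPM, led by Tek in untreated DKO and etoposide-treated Null cells and by Pecam1 in the other 2 groups, and the 3 neuronal markers to 0.275, 0.201, 1.00 and 0.482 CPM, led by Syp except in etoposide-treated Null cells, where Rbfox3 led. The 3 muscle markers summed to 2.11, 0.386, 36.6 and 2.49 CPM, nearly all from Des, with Myod1 and Myog under 1 CPM. All these sums thus moved with etoposide in both genotypes without overlap of libraries. Fibroblast sums fell, epithelial sums rose in Null and fell in DKO cells, where only Krt8 of the 6 fell, and the others rose, and their part in the levels of the 3 RNAs was not tested.

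RNA polymerase I transcribes the ribosomal DNA repeats into a long precursor, the RNA that Rn45s stands for, which is cut and trimmed in the nucleolus into mature ribosomal RNAs. Rmrp is the RNA of RNase MRP, which cleaves that precursor within its internal spacer, and human RMRP is mutated in cartilage-hair hypoplasia. Rpph1 is the RNA of RNase P, which removes the leader from precursors of transfer RNA; both RNAs are made by RNA polymerase III from promoters that lie upstream of the gene, and the enzymes share most of their proteins.

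Rmrp lies at chr4:43492788-43493058 and Rpph1 at chr14:50807449-50807767, both on the minus strand of the mm10 build (GRCm38, GENCODE M21). They are 271 and 319 bases long, with 64.2% and 67.1% G and C. Both RNAs are printed because their reads carry the results, and in each the run is written 5′ to 3′ on the RNA's own strand, with no part in capitals. For Rpph1 the run covers bases 1 to 300, chr14:50807468-50807767.
Rmrp: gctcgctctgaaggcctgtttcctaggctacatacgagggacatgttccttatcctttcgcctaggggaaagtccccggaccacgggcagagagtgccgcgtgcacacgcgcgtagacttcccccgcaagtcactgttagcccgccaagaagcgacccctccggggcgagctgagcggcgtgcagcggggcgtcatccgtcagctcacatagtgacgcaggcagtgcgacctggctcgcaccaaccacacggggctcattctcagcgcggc
Rpph1: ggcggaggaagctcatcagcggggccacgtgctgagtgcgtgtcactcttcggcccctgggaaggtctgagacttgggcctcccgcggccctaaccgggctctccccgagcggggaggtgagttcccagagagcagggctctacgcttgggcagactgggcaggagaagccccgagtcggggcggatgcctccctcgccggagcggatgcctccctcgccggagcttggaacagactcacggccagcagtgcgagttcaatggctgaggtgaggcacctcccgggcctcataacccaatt
Rn45s has no position, length or sequence in the annotation used, so it is described by its counts alone.

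Each of the 2 placed genes lies head to head with a protein-coding gene, and the promoter windows of those neighbours, from RefSeq on GRCm38.p6, are printed because they hold sequence upstream of Rpph1 and Rmrp. Both windows are written on the plus strand, at chr14:50807666-50807965 for Parp2 and chr4:43493115-43493414 for Ccdc107. Capitals mark the letters TATAA and ATTTGCAT (the octamer, read as ATGCAAAT on the other strand), both searched on both strands.
Parp2 window: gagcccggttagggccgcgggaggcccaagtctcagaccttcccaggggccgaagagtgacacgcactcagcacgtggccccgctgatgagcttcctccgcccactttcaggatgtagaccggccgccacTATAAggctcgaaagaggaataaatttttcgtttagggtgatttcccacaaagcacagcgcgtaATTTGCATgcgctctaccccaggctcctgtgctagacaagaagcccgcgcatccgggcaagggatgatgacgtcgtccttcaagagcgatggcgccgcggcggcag
Ccdc107 window: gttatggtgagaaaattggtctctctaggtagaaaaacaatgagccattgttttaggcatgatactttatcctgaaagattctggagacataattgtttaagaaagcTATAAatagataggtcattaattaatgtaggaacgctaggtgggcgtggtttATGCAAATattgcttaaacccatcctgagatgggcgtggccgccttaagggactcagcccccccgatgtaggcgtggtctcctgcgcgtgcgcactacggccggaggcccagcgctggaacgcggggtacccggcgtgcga
In the Parp2 window TATAA ends 29 bases upstream of the Rpph1 5′ end and the octamer 93 bases upstream. The Ccdc107 window stops short of the Rmrp 5′ end, and in it the same letters lie 164 and 216 bases upstream of Rmrp. Of 32851 promoter windows of this length, 24.9% held TATAA, 1.74% the octamer and 0.597% both. The E-box CACGTG, the core of motifs bound by the family of TFEB, in 7.15% of the windows, was found once in the Parp2 window, inside the start of Rpph1, and not in the Ccdc107 window. A match of letters is a description and says nothing of binding.

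The 3 RNAs took up a large part of the libraries. Together they held 2.80% to 6.78% of all counts on genes in the 12 libraries, on average 4.22% in untreated Null, 3.05% in untreated DKO, 6.55% in etoposide-treated Null and 4.81% in etoposide-treated DKO cells. By mean share over the 12 libraries, Rn45s was the highest gene of the table at 2.97%. Eef1a1 at 1.13%, Rmrp at 0.921%, Actb at 0.808% and Rpph1 at 0.772% followed. The order differed between libraries. Rn45s had rank 2 in untreated DKO replicates 2 and 3. Rmrp had ranks 6, 6 and 7 in untreated DKO libraries, below Rpph1 at rank 5, and ranks 2, 2 and 3 in etoposide-treated Null libraries. The paper's methods name a library kit that removes ribosomal RNA, so the counts of Rn45s are those left after that step and do not give the amount of precursor in the cell. How much each library lost in that step is not stated. Mature ribosomal RNAs are cut from the precursor, and counts on Rn45s do not tell reads of precursor from reads of mature RNA. The labels also name 2 kits for RNA isolation without saying which library had which, and their part was not tested. Fewer cells carrying an RNA and less RNA per cell cannot be told apart in such bulk samples.

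Rn45s held 2.20%, 2.82% and 2.89% of the counts in untreated Null libraries and 1.91%, 1.95% and 1.66% in untreated DKO libraries. After etoposide it held 4.38%, 3.81% and 4.28% in Null and 3.16%, 3.58% and 2.98% in DKO libraries. As shares, the 4 groups did not overlap, from untreated DKO at the bottom through untreated Null and etoposide-treated DKO to etoposide-treated Null at the top. Rmrp held 0.835%, 0.922% and 0.836% in untreated Null and 0.601%, 0.634% and 0.568% in untreated DKO libraries. After etoposide its share was 1.46%, 1.48% and 1.35% in Null and 0.757%, 0.822% and 0.788% in DKO libraries. For Rmrp too the shares of the 4 groups were apart, with etoposide-treated DKO just under untreated Null. Rpph1 held 0.707%, 0.727% and 0.728% in untreated Null and 0.617%, 0.646% and 0.578% in untreated DKO libraries. With etoposide its share was 0.943%, 0.956% and 1.02% in Null and 0.765%, 0.808% and 0.771% in DKO libraries. Rpph1 shares were the most even of the 3 across the groups and still did not overlap between any pair of groups. How many of all genes had unscaled shares apart in this way was not counted. For levels scaled as below it was common: with etoposide in Null cells 42.7% of the genes tested were higher and 37.5% lower without overlap.

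**Figure D1:**
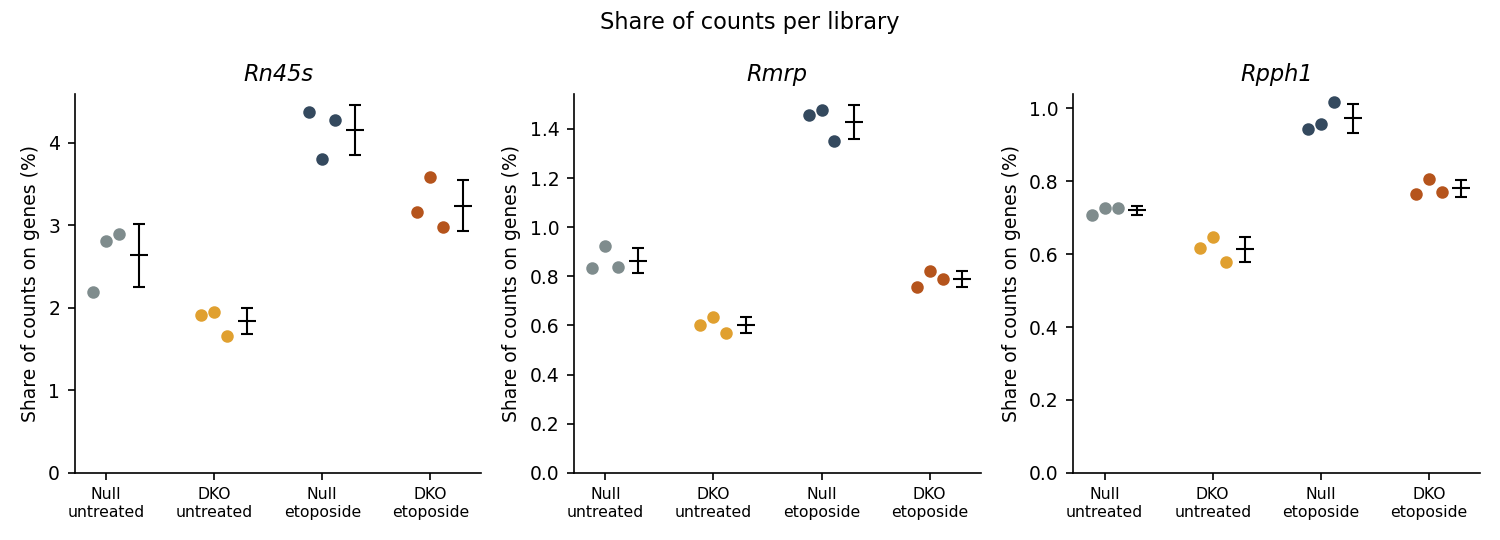
Share of the counts on genes (%, vertical axis) held by Rn45s, Rmrp and Rpph1 in each of the 12 libraries (points), with the mean and SD of the 3 libraries of each group (bars). Etoposide-treated Null libraries hold the highest shares of all 3 RNAs, at 3.81% to 4.38% for Rn45s.

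A share falls or rises with everything else in the library, so the levels were also read after TMM scaling, where the groups drew closer. TMM factors ran from 0.884 to 1.09, and computing them without the 3 RNAs moved no library by more than 0.0247 on the log2 scale. Rn45s then stood at 22682, 29275 and 29934 CPM in untreated Null and at 21545, 22047 and 18555 CPM in untreated DKO libraries. After etoposide it stood at 40287, 35080 and 39512 CPM in Null and at 29140, 33470 and 27909 CPM in DKO libraries. Its levels ran from etoposide-treated Null through etoposide-treated DKO and untreated Null to untreated DKO, and the 2 groups in the middle overlapped, 2876 CPM apart with a combined spread (SD) of 4961 CPM. Untreated Null replicate 1 was low for its group and close to the untreated DKO libraries.

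Rmrp stood at 8616, 9581 and 8649 CPM in untreated Null and at 6760, 7173 and 6364 CPM in untreated DKO libraries. After etoposide it stood at 13416, 13630 and 12451 CPM in Null and at 6980, 7683 and 7386 CPM in DKO libraries. Its order was etoposide-treated Null, untreated Null, etoposide-treated DKO and untreated DKO, and the last 2 overlapped, 584 CPM apart with a spread of 537 CPM. The step from untreated to etoposide-treated Null cells, 4217 CPM against a spread of 834 CPM, was the largest between neighbours in these orders when measured in spreads.

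Rpph1 stood at 7295, 7556 and 7528 CPM in untreated Null and at 6948, 7308 and 6469 CPM in untreated DKO libraries. After etoposide it stood at 8688, 8810 and 9402 CPM in Null and at 7056, 7549 and 7225 CPM in DKO libraries. Here the etoposide-treated Null group alone stood apart. Untreated Null, etoposide-treated DKO and untreated DKO followed it in that order, and each overlapped the next, with gaps of 183 and 368 CPM against spreads of 289 and 490 CPM.

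In Null cells etoposide came with higher levels of all 3 RNAs, without overlap between the libraries of the groups. Among the 15220 genes tested, 42.7% were higher and 37.5% lower without overlap in that comparison, so such a difference was common. The log2 fold change of Rmrp was 0.56 ± 0.06 (SE, n = 3 a group), that of Rn45s was 0.49 ± 0.10 and that of Rpph1 was 0.27 ± 0.05, where the median of all genes was 0.07. In DKO cells Rn45s was higher by 0.54 ± 0.10, again without overlap, as 44.0% of genes were higher and 32.1% lower. Rmrp at 0.12 ± 0.06 and Rpph1 at 0.08 ± 0.05 overlapped between the DKO groups (0.071 to 0.137 and 0.027 to 0.087 when a library was left out), and both were below the median of all genes, 0.14. The etoposide comparisons depend on scaling: with library size alone the medians of all genes became 0.23 in Null and 0.41 in DKO cells. Rmrp and Rpph1 in DKO cells became 0.39 and 0.35, still below the median there, and Rn45s became 0.82. In Null cells Rmrp then stood at 0.72 and Rpph1 at 0.43.

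Between genotypes without etoposide, Rmrp was lower in DKO cells by -0.40 ± 0.06 and Rn45s by -0.40 ± 0.10, both without overlap, which 35.8% of genes showed downward and 34.8% upward. Rpph1, at -0.11 ± 0.05, overlapped (-0.158 to -0.065 when a library was left out). With library size alone the median of all genes moved from -0.02 to -0.14 there, and Rpph1 to -0.23. After etoposide all 3 RNAs were lower in DKO than in Null cells without overlap, as were 37.2% of the genes tested, with 37.6% higher. There Rmrp differed by -0.84 ± 0.06, Rn45s by -0.34 ± 0.10 and Rpph1 by -0.30 ± 0.05, and the median of all genes was -0.00446. Rmrp in etoposide-treated DKO cells thus stood at 0.558 of its level in etoposide-treated Null cells. The interaction, the etoposide response in DKO minus that in Null cells, was -0.44 ± 0.08 for Rmrp, -0.19 ± 0.07 for Rpph1 and 0.05 ± 0.14 for Rn45s. For Rpph1 it was -0.085 with library size alone and -0.253 with DESeq2 size factors, and for Rmrp -0.332 and -0.5. Its sign for Rn45s changed with the scaling and with single libraries, among them -0.01 without untreated Null replicate 3 and -0.04 without etoposide-treated DKO replicate 2. The comparisons share groups with each other, so their values stand side by side and are not independent.

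**Figure D2:**
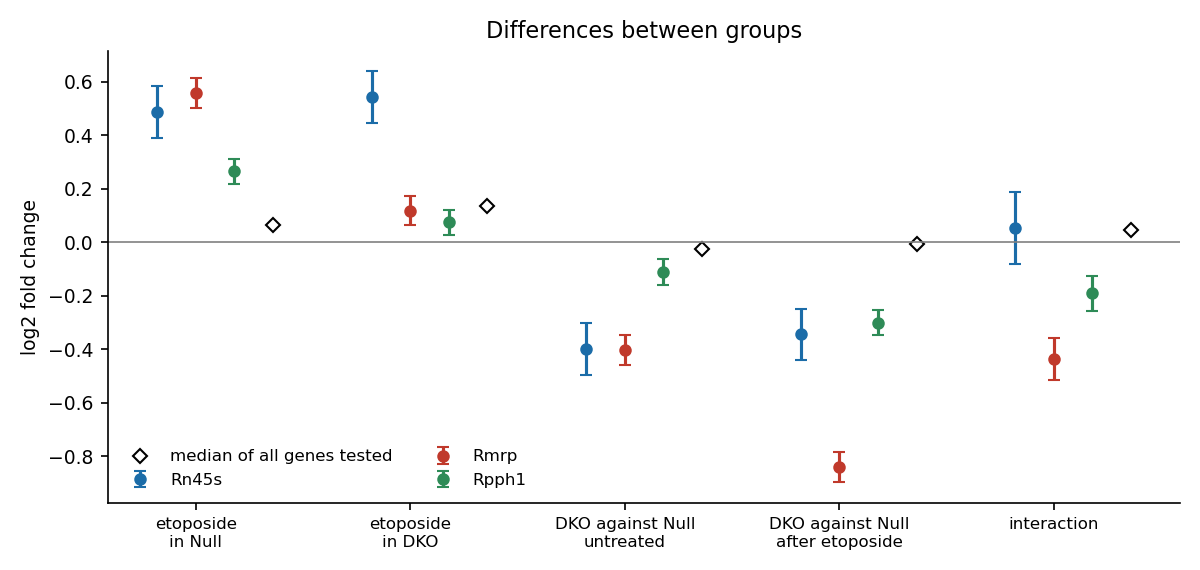
Log2 fold change (vertical axis) of Rn45s, Rmrp and Rpph1 in the 5 comparisons, with bars of 1 SE and open diamonds for the median of all 15220 genes tested. Rmrp is the lowest point of the plot, at -0.84 in DKO against Null after etoposide.

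Ratios of counts within a library do not depend on scaling. Rmrp to Rpph1 was 1.20 ± 0.0616 (SD, n = 3) in untreated Null, 0.979 ± 0.00566 in untreated DKO, 1.47 ± 0.128 in etoposide-treated Null and 1.01 ± 0.0179 in etoposide-treated DKO cells. All 6 Null libraries, from 1.15 to 1.55, were above all 6 DKO libraries, from 0.973 to 1.02. Within Null cells the ratio was higher with etoposide, and the groups did not overlap. Per base of RNA, Rmrp exceeded Rpph1 by a factor of 1.41 ± 0.0725 in untreated Null, 1.15 ± 0.00666 in untreated DKO, 1.73 ± 0.150 in etoposide-treated Null and 1.19 ± 0.0211 in etoposide-treated DKO cells. This division used the full lengths, 271 and 319 bases, and took no account of fragment lengths. In untreated DKO cells, where the undivided ratio was 0.979, the excess of Rmrp rests on it. Counts of Rn45s, whose length is not known here, were not compared per base.

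The ratio of Rn45s to Rmrp separated another group. It was 3.05 ± 0.414 in untreated Null, 3.06 ± 0.136 in untreated DKO and 2.92 ± 0.309 in etoposide-treated Null cells, which overlapped, and 4.10 ± 0.296 in etoposide-treated DKO cells, which overlapped none of them. Rn45s to Rpph1 was 3.65 ± 0.474, 3.00 ± 0.118, 4.27 ± 0.334 and 4.14 ± 0.286 in the same order. For Rn45s to Rpph1 the 2 etoposide groups overlapped each other, and untreated DKO was below both of them and below every untreated Null library.

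**Figure D3:**
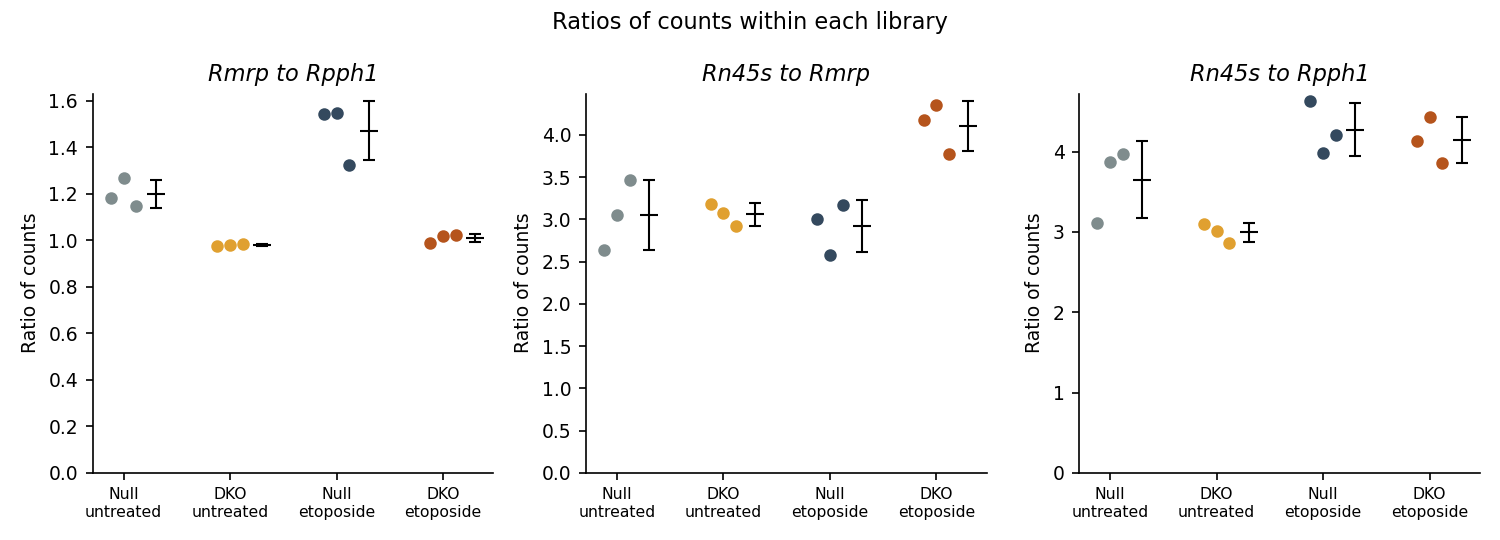
Ratio of counts (vertical axis) of Rmrp to Rpph1, Rn45s to Rmrp and Rn45s to Rpph1 in each library (points), with the mean and SD of each group of 3 (bars). Rmrp to Rpph1 lies near 1 in the DKO libraries and above 1.14 in the Null libraries.

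The RNAs differed in how evenly replicates repeated. The coefficient of variation within groups, pooled over the 4 groups, was 10.6% for Rn45s, 5.46% for Rmrp and 4.21% for Rpph1, against a median of 5.91% over the 15220 genes tested. Highly counted genes vary less: over the 51 genes that reached 1000 CPM the median was 3.45%, and the 3 RNAs stood at percentiles 92.2, 78.4 and 64.7 of those genes. Libraries also differed in reads outside genes, with the highest share in etoposide-treated Null and the lowest in untreated DKO cells, as for the RNAs. Reads in no annotated feature were 22.5% to 24.2% of all reads listed in untreated Null, 20.2% to 21.1% in untreated DKO, 25.1% to 27.3% in etoposide-treated Null and 21.2% to 22.3% in etoposide-treated DKO libraries. Reads without a unique alignment, which include those from repeated genes, were 15.9% to 20.5% over the 12 libraries and were not counted on any gene. The part of either in the levels of the RNAs was not tested.

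Patterns over the 12 libraries were compared by the root mean square difference of centred log2 CPM, over the 9352 tested genes whose mean level reached 10 CPM. Closest to Rn45s were Glrx5 at 0.107, Ghdc at 0.115 and Serhl at 0.121, where the median gene was at 0.486. Closest to Rmrp were Nadk at 0.0801, Cdc42ep4 at 0.0808 and Cltb at 0.0848, with a median of 0.521. Closest to Rpph1 were Rprl3 at 0.0277, Mdp1 at 0.0481 and Lrwd1 at 0.0490, with a median of 0.356. These genes are the closest by choice. Between members the distance was 0.228 for Rn45s and Rmrp, 0.226 for Rn45s and Rpph1 and 0.241 for Rmrp and Rpph1. All of these lay below the medians. Ordered by distance from Rn45s, Rpph1 had place 490 and Rmrp place 520 of 9352. From Rmrp, Rn45s had place 450 and Rpph1 place 521, and from Rpph1, Rn45s had place 2000 and Rmrp place 2354.

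Rprl3 is annotated as an RNase P RNA-like gene, at chr8:3803069-3803358 on the minus strand, and is printed because its counts moved with those of Rpph1. Capitals mark the 14 bases that differ from Rpph1 in the alignment of its first 236 bases, and the bases after those were not part of the alignment.
Rprl3: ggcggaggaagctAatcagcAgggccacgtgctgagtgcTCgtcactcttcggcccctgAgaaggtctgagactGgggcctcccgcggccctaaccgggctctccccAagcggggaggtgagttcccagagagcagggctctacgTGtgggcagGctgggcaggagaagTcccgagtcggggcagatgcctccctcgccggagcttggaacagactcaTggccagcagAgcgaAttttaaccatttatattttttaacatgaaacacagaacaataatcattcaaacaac
Rprl3 matched Rpph1 at 94.1% of 236 aligned bases, with 21 further bases in gaps and a longest shared run of 37 bases. No window of 75 bases, the read length of the study, was the same in both. Rprl3 stood at 376, 390 and 384 CPM in untreated Null, 373, 388 and 348 CPM in untreated DKO, 466, 465 and 501 CPM in etoposide-treated Null and 384, 391.8 and 381 CPM in etoposide-treated DKO libraries. Its counts were 5.10% to 5.44% of those of Rpph1 in all 12 libraries, a narrower range than that of either gene. As the gene closest to Rpph1 it is described with no test. Its log2 fold change with etoposide was 0.32 ± 0.04 in Null cells and 0.06 ± 0.04 in DKO cells, the latter 0.334 with library size alone, and the interaction was -0.26 ± 0.06. Whether reads of Rpph1 were placed on Rprl3 was not tested. Rprl2 stood at 0.0360% and Rprl1 at 0.00381% of the counts of Rpph1, with 93.6% and 91.5% identity over their aligned bases.

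**Figure D4:**
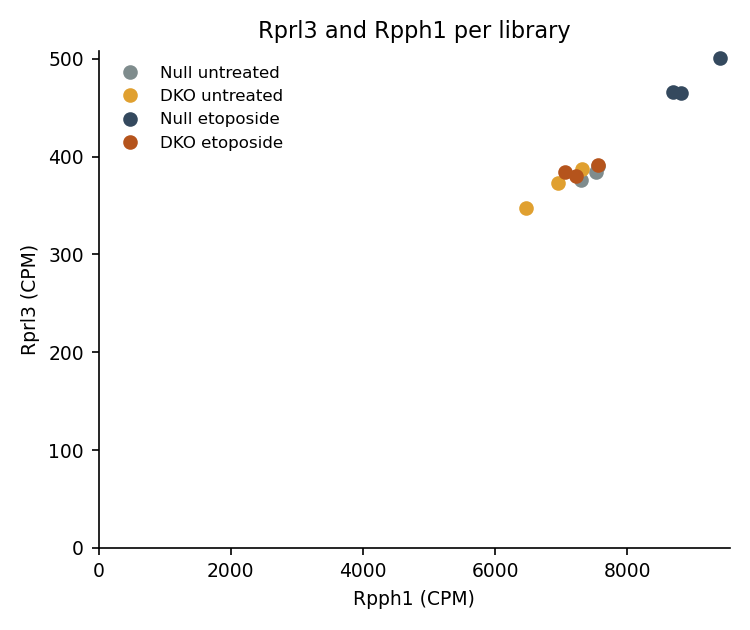
Level of Rprl3 (CPM, vertical axis) against level of Rpph1 (CPM, horizontal axis) in the 12 libraries, coloured by group. The 3 etoposide-treated Null libraries lie apart at the top right, at 465 to 501 CPM of Rprl3.

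Genes next to the RNAs followed other patterns with etoposide and were mixed between genotypes. Parp2, a DNA damage-responsive ADP-ribose polymerase that starts 74 bases from Rpph1 on the opposite strand, stood at 32.5 ± 0.696 CPM (SD, n = 3) in untreated Null, 29.99 ± 1.18 in untreated DKO, 33.9 ± 1.14 in etoposide-treated Null and 36.1 ± 2.36 in etoposide-treated DKO cells. Parp2 rose with etoposide in DKO cells by 0.27 ± 0.05 (adjusted p = 0.000166, edgeR) and its difference in Null cells was 0.06 ± 0.05 (adjusted p = 0.273), the reverse of the order seen for Rpph1. With library size alone the value in Null cells became 0.23 and passed the threshold. Between genotypes Parp2 differed without etoposide by -0.12 ± 0.05 (adjusted p = 0.0592, edgeR), where Rpph1 differed by -0.11. With library size alone the Parp2 value was -0.24 and passed. After etoposide Parp2 differed by 0.09 ± 0.05 (adjusted p = 0.116, edgeR), where Rpph1 was lower in DKO cells. The interaction for Parp2, 0.21 ± 0.07 (adjusted p = 0.0234), missed the threshold with DESeq2 size factors (0.109) or DESeq2 (0.118). It also missed without untreated Null replicate 1 (0.0584), untreated DKO replicate 2 (0.0934), etoposide-treated Null replicate 3 (0.0501), or etoposide-treated DKO replicate 1 (0.0822) or 3 (0.0676). Ccdc107 overlaps Rmrp on the opposite strand in GENCODE. The files do not state the strand setting of the counting, and the part of reads from Rmrp in the counts of Ccdc107 was not tested. Ccdc107 stood at 24.4 ± 1.63 CPM in untreated Null, 29.8 ± 1.53 in untreated DKO, 20.5 ± 0.977 in etoposide-treated Null and 32.1 ± 1.35 in etoposide-treated DKO cells. Ccdc107 was higher in DKO cells, by 0.28 ± 0.06 untreated (adjusted p = 0.000365) and 0.65 ± 0.06 after etoposide (adjusted p = 2.06e-08, edgeR), where Rmrp was lower. Arhgef39, 3079 bases from Rmrp, fell with etoposide by 1.06 in Null cells (log2 fold change -1.06 ± 0.13, adjusted p = 5.74e-07) and by 0.85 in DKO cells (-0.85 ± 0.14, adjusted p = 3.34e-05). Like Rmrp, Arhgef39 was lower in untreated DKO than in untreated Null cells, by -0.51 ± 0.12 (adjusted p = 0.00105, edgeR). After etoposide it differed by -0.30 ± 0.15 with overlap (adjusted p = 0.0706, edgeR), and passed the threshold with DESeq2 size factors (0.0345). Sit1, 9049 bases from Rmrp, and Ccnb1ip1, whose annotation overlaps Rpph1 on its own strand, did not pass the filter on low counts.

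The proteins of RNase P and RNase MRP, 11 genes that the 2 enzymes largely share, are given next. Counts of genes in such lists depend on scaling: of all genes past the threshold, 53.2% were higher with etoposide in Null cells and 64.0% with library size alone, 58.1% and 75.6% in DKO cells, 49.9% and 38.4% in DKO against Null untreated, and 54.8% and 65.2% in the interaction, whose median moved from 0.05 to 0.15. With DESeq2 size factors the balance of the interaction turned, to 47.5% and a median of -0.016, and so did that of DKO against Null after etoposide, from 50.6% to 45.4%. With etoposide in Null cells 4 rose and 4 fell (edgeR, adjusted p under 0.05), where 42.3% of all genes tested rose and 37.2% fell. The median of the 11 was -0.01 against 0.07 for all genes, and it turned to 0.15 against 0.23 with library size alone. Pop4 (0.70 ± 0.06), Rpp25l (0.64 ± 0.06) and Pop5 (0.63 ± 0.06) rose, while Rpp38 (-0.84 ± 0.07), Rpp40 (-0.64 ± 0.09), Pop7 (-0.52 ± 0.05) and Rpp30 (-0.44 ± 0.05) fell. Pop1, the largest of these proteins, moved little in Null cells, at 0.11 ± 0.03 (adjusted p = 0.00928, and 0.0616 without untreated Null replicate 1 or 0.0632 without etoposide-treated Null replicate 2).

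In DKO cells etoposide came with 9 of the 11 genes higher and 2 lower, among 43.7% and 31.5% of all genes. The median was 0.40 against 0.14 for all genes. Rpp40 at 0.62 ± 0.09, Rpp14 at 0.59 ± 0.04 and Rpp25l at 0.57 ± 0.06 were among the rises, and Rpp38 at -0.60 ± 0.07 was the larger fall. The other fall, Pop7 at -0.22 ± 0.05, turned to 0.05 with library size alone. The rise of Rpp21, 0.21 ± 0.08 (adjusted p = 0.0218), was lost without untreated DKO replicate 2 (0.141) or 3 (0.0762) or etoposide-treated DKO replicate 1 (0.0610) or 2 (0.0768), and that of Pop4, 0.19 ± 0.05 (adjusted p = 0.00479), without etoposide-treated DKO replicate 3 (0.0524). Rpp25 was counted 3, 1 and 0 times in the untreated DKO libraries and 16, 25 and 53 times in the etoposide-treated DKO libraries. The fitted fold change of Rpp25 therefore depends on the prior count, and with its untreated DKO level set to 3 counts per library the median of the 11 genes was also 0.40 here and -0.24 in the comparison of untreated genotypes.

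Without etoposide, 6 of the 11 were lower and 1 higher in DKO than in Null cells, among 33.4% and 33.3% of all genes, with a median of -0.24 against -0.02. Pop1 stood at 131 ± 1.91 CPM (SD, n = 3) in untreated Null and 60.5 ± 1.19 CPM in untreated DKO cells, a log2 fold change of -1.11 ± 0.03 (adjusted p = 1.18e-14, edgeR). Pop4 was the gene that was higher, by 0.45 ± 0.06. The fall of Rpp40, -0.24 ± 0.09 (adjusted p = 0.0241), was lost without untreated Null replicate 1 (0.0813) or untreated DKO replicate 1 (0.0764) or 2 (0.111). After etoposide 4 were higher and 4 lower in DKO cells, among 37.5% and 36.6% of all genes, with Pop1 still at -0.82 ± 0.03 and Rpp40 at 1.02 ± 0.09. Of the lower ones, Rpp38 at -0.19 ± 0.07 and Rpp25l at -0.16 ± 0.06 passed with all libraries and missed the threshold without some single ones: Rpp38 reached 0.0885 without etoposide-treated Null replicate 2 and 0.0550 without etoposide-treated DKO replicate 3, and Rpp25l 0.0815 without etoposide-treated Null replicate 3. In the interaction 7 genes of the 11 passed the threshold above 0 and 1 below, among 29.6% and 24.4% of all genes.

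RNA polymerase I and its initiation and termination factors, 16 genes that serve the precursor behind Rn45s, mostly fell with etoposide in Null cells, where Rn45s was higher. There 11 fell and 5 rose, among 37.2% and 42.3% of all genes, with a median of -0.50 against 0.07 for all genes. Cd3eap (-1.33 ± 0.04) and Polr1b (-1.06 ± 0.04), both polymerase subunits, fell most, and Ttf1 (1.17 ± 0.05), the termination factor, and Polr1e (0.44 ± 0.05) rose most. In DKO cells 7 rose and 6 fell, among 43.7% and 31.5%, with a median of 0.05 against 0.14, and the balance turned with scaling, to 6 and 7 with DESeq2 size factors and to 10 and 3 with library size alone. Untreated DKO cells had 12 of the 16 lower and 3 higher than Null cells, among 33.4% and 33.3%. After etoposide 10 were higher and 5 lower in DKO cells, among 37.5% and 36.6% (7 and 5 with DESeq2 size factors), with Polr1b at 0.63 ± 0.04 and Cd3eap at 0.58 ± 0.05 at the top and Taf1a at -0.74 ± 0.09 and Polr1c at -0.56 ± 0.05 at the bottom. The interaction passed the threshold above 0 for 8 and below 0 for 1 of them, among 29.6% and 24.4%, with a median of 0.19 against 0.05.

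Precursor processing and ribosome assembly were listed with 52 genes. With etoposide in Null cells 46 fell and 2 rose, among 37.2% and 42.3% of all genes, with a median of -0.44 against 0.07 for all genes, and with library size alone 40 fell and 5 rose. Wdr43 (-1.57 ± 0.03) and Heatr1 (-1.24 ± 0.04), both of the early processing complex, fell most, and the 2 rises were Nop10 (0.27 ± 0.05) and Nhp2 (0.16 ± 0.03), proteins of H/ACA particles. In DKO cells 28 rose and 14 fell, among 43.7% and 31.5%, with a median of 0.13 against 0.14, and with library size alone 44 rose and 1 fell. Untreated DKO cells had 38 lower and 5 higher, among 33.4% and 33.3%. After etoposide 40 were higher and 4 lower in DKO cells, where 37.5% and 36.6% of all genes were, with Dkc1 (0.91 ± 0.04), the pseudouridine synthase, and Imp4 (0.81 ± 0.04) above, and Exosc10 (-0.21 ± 0.04) and Nop10 (-0.17 ± 0.05) below. The interaction passed the threshold above 0 for 49 of the 52 and below 0 for 1, among 29.6% and 24.4%, with a median of 0.61 against 0.05. Rn45s, by contrast, had an interaction within its spread.

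The RNA polymerase III machinery, 29 genes including the factors at promoters of the Rmrp and Rpph1 kind, was mixed. With etoposide in Null cells 17 fell and 6 rose, among 37.2% and 42.3% of all genes, with a median of -0.18 against 0.07. With library size alone 12 fell and 10 rose, and the median became -0.01 against 0.23. Pou2f1 (-1.64 ± 0.07), a factor that binds the octamer, and Bdp1 (-1.02 ± 0.04), a part of TFIIIB, fell most. Gtf3a (1.54 ± 0.04), the factor for 5S RNA genes, and Gtf3c1 (0.74 ± 0.03), a part of TFIIIC, rose most; neither is needed at promoters of the Rmrp kind. In DKO cells 10 rose and 6 fell, among 43.7% and 31.5%, with a median of 0.01 against 0.14. With DESeq2 size factors 8 rose and 8 fell, with a median of -0.012, and the count past the threshold moved from 16 to 25 with library size alone, 21 of them up. Untreated DKO cells had 13 lower and 6 higher (20 and 4 with library size alone), among 33.4% and 33.3%, with a median of -0.12. After etoposide 9 were higher and 11 lower in DKO cells, among 37.5% and 36.6%, with Polr3b (0.77 ± 0.05) and Pou2f1 (0.69 ± 0.07) at the top and Gtf3a (-0.75 ± 0.04) and Gtf3c1 (-0.66 ± 0.03) at the bottom. The interaction passed the threshold above 0 for 13 genes and below 0 for 5, among 29.6% and 24.4%, with a median of 0.15. With DESeq2 size factors these counts were 12 and 7, and with library size alone 19 and 4.

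A list of proteins that bind or process RNA polymerase III transcripts also held proteins of mitochondrial RNase P. Of its 17 genes 16 were measured. With etoposide in Null cells 7 of them were lower and 4 higher, among 37.2% and 42.3% of all genes, with a median of -0.08. With library size alone the balance turned, to 5 lower and 7 higher with a median of 0.09. Xpot (-0.84 ± 0.04), the exporter of transfer RNA, and Trmt10c (-0.43 ± 0.05), a protein of mitochondrial RNase P, fell most, and the splicing endonuclease subunits Tsen54 (0.89 ± 0.06) and Tsen15 (0.41 ± 0.05) rose most. In DKO cells 10 rose and 3 fell, among 43.7% and 31.5%, with a median of 0.30. Untreated DKO cells had 7 lower and 4 higher, among 33.4% and 33.3%. After etoposide 10 were higher and 1, Tsen54 (-0.80 ± 0.06), was lower in DKO cells, among 37.5% and 36.6%, with Xpot at 0.89 ± 0.04 and 1110008L16Rik, the catalytic protein of mitochondrial RNase P, at 0.53 ± 0.08. The interaction passed the threshold above 0 for 10 genes and below 0 for 1, among 29.6% and 24.4%, with a median of 0.28.

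**Figure D5:**
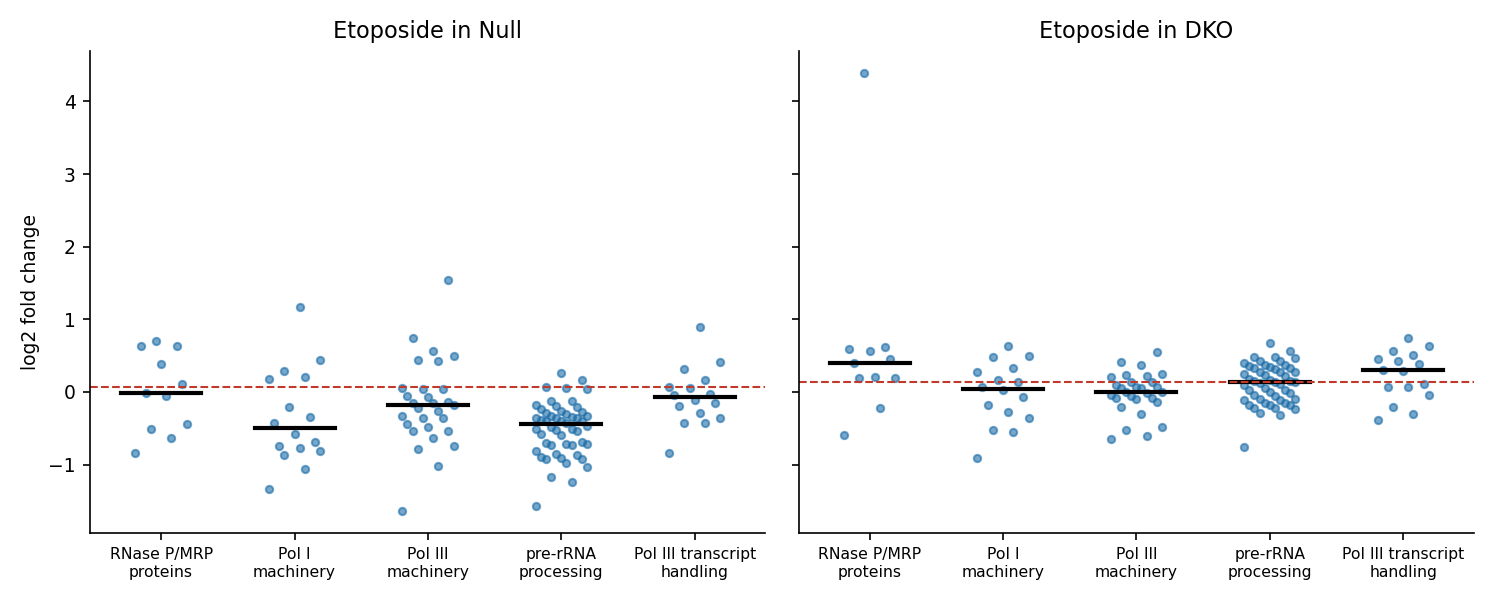
Log2 fold change with etoposide (vertical axis) of each gene of 5 lists in Null cells (left) and DKO cells (right), with black lines at list medians and a dashed line at the median of all genes. Precursor processing genes lie mostly below 0 in Null cells, with a median of -0.44, and on both sides of 0 in DKO cells, with a median of 0.13.

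A further list named 11 genes of other structural RNAs, all present in the count table. Of these 8 were tested, and Rn4.5s, Rnu6 and Rnu7 were listed at 0 in all libraries. Without etoposide 5 of the 8 were lower and none higher in DKO cells, among 33.4% and 33.3% of all genes, with a median of -0.77 against -0.02 for all genes, and after etoposide again 5 were lower and none higher, among 36.6% and 37.5%, with a median of -0.76. Terc, the RNA of telomerase, stood at 38.3, 44.9 and 44.9 CPM in untreated Null, 23.4, 25.0 and 21.6 CPM in untreated DKO, 58.3, 54.1 and 62.2 CPM in etoposide-treated Null and 29.9, 32.3 and 32.5 CPM in etoposide-treated DKO libraries. Like Rn45s, Terc was lower in DKO cells whatever the treatment, at -0.87 ± 0.07 (adjusted p = 6.02e-09) and -0.88 ± 0.07 (adjusted p = 2.46e-09), and rose with etoposide in both genotypes, at 0.45 ± 0.07 in Null (adjusted p = 9.26e-06) and 0.44 ± 0.07 in DKO cells (adjusted p = 3.28e-05, edgeR). The minor spliceosomal RNAs Rnu12 (-0.98 ± 0.19 and -1.39 ± 0.17) and Rnu11 (-0.74 ± 0.13 and -0.92 ± 0.13) and the vault RNA Vaultrc5 (-0.80 ± 0.21 and -0.99 ± 0.19) were lower in DKO cells without and with etoposide. Their levels were low, at means of 5.06, 4.38 and 2.49 CPM. The other lower genes were Rnu73b without etoposide (-1.22 ± 0.36), named after its values were seen, and Rprl3 after it (-0.31 ± 0.04). With etoposide 3 of the 8 rose in Null cells, among 42.3% of all genes, Rnu12 by 0.62 ± 0.16 beside Terc and Rprl3 (4 with DESeq2 size factors and 5 with library size alone), and in DKO cells Terc alone passed, although 5 of the 8 did with library size alone. In the interaction none passed besides Rprl3, which was also chosen for its pattern, so its part in these counts is a description.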

How the data were processed

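Total RNA from 12 MEF libraries, 4 groups of 3, was sequenced, and per the labels and the paper's methods the authors aligned read pairs to mm10 with HISAT2 and counted unique alignments per gene; the deposited values are raw counts. The labels name featureCounts and the paper HTSeq, and the summary lines of the table carry HTSeq's names. The members and gene lists were chosen with earlier results of these data known. Counts were fitted with edgeR 4.0.16 in R 4.3.3: filterByExpr by group, TMM, estimateDisp, then glmQLFit and glmQLFTest on a group factor, with Benjamini-Hochberg adjustment over 15220 genes and a threshold of 0.05. The fit was run first in its earlier form (legacy = TRUE, 11940 genes past the threshold for etoposide in Null), and the bias-adjusted form was taken after those results were seen, because earlier processing of these data used it (12091 genes). SE is the size of the log2 fold change over the square root of F. Shares are percent of counts on genes, with Wilson intervals. Alternatives were DESeq2 1.42.0 and its size factors, library size alone, limma 3.58.1 (limma-trend, robust), no filter, a mean of at least 1 CPM, members removed, a replicate block, each library left out, and the earlier fit, chosen after seeing the data. From the planned leukocyte list 1 marker was left out. Replicate numbers were not read as pairs: deviations from group means of same-numbered libraries correlated at -0.032 to 0.0429. No test was made of the members' own contrasts. Named were the members, Tfeb, Tfe3, tested neighbours within 10 kb, all RNase P and MRP proteins, the 2 largest rises and falls past the threshold of each other protein list in etoposide in Null and in DKO against Null after etoposide, other structural RNAs of at least 1 CPM, and the 3 genes closest to each member, whose pattern the choice fixed and which were left out of the count of interactions after it was seen.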

Additional observations from a re-analysis of the deposited data

Results flagged for a closer look

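The response to etoposide differed between the genotypes for 32 of 44 named genes beside the members, by the interaction in the edgeR fit (adjusted p under 0.05), with 27 above 0 and 5 below, among 29.6% and 24.4% of all genes. The genes chosen for a pattern like that of a member are left out. Many of the others were named for the size of their changes in 2 of the comparisons, which raises this count. Values are log2 fold changes, DKO minus Null.

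Among the targeted genes and the neighbours of the RNAs the interaction was 0.49 for Tfeb, 0.28 for Tfe3, 0.36 for Ccdc107 and 0.21 for Parp2. For Tfeb the adjusted p, 0.0195, rose to 0.0593 without untreated DKO replicate 1 and to 0.178 without etoposide-treated DKO replicate 3. For Parp2 it rose from 0.0234 to 0.109 with DESeq2 size factors, to 0.118 with DESeq2, and to between 0.0501 and 0.0934 without untreated Null replicate 1, untreated DKO 2, etoposide-treated Null 3, or etoposide-treated DKO 1 or 3.

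For proteins of RNase P and MRP it was 1.26 for Rpp40, 0.64 for Rpp14, 0.63 for Rpp30, 0.29 for Pop1, 0.29 for Pop7, 0.24 for Rpp38 and -0.51 for Pop4. It was 4.01 for Rpp25, whose untreated DKO libraries held 3, 1 and 0 counts. The value of Rpp38 missed the threshold with DESeq2 size factors (0.131), with DESeq2 (0.153), with the members removed (0.0579) and with any of 9 libraries left out, at 0.0533 to 0.149 (untreated Null replicates 1 and 2, untreated DKO 1 and 2, etoposide-treated Null 1 and 3, and etoposide-treated DKO 1, 2 and 3).

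For the RNA polymerase I and III lists it was 1.19 for Polr1b, 0.78 for Cd3eap, 0.18 for Polr1e and -0.69 for Ttf1, and 1.12 for Pou2f1, 0.73 for Polr3b, 0.54 for Bdp1, -1.0 for Gtf3a and -0.67 for Gtf3c1. Polr1e missed the threshold with DESeq2 size factors (0.144), with DESeq2 (0.168) and with any of 5 libraries left out, at 0.0557 to 0.0955 (untreated Null replicate 1, untreated DKO 2, etoposide-treated Null 2, and etoposide-treated DKO 2 and 3).

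For processing factors it was 1.14 for Heatr1, 0.98 for Dkc1, 0.82 for Wdr43, 0.66 for Imp4, 0.32 for Exosc10, 0.29 for Nop10 and 0.24 for Nhp2. For proteins that handle RNA polymerase III transcripts it was 1.26 for Xpot, 0.34 for Tsen15 and -0.50 for Tsen54. For 1110008L16Rik, a protein of mitochondrial RNase P on the same list, it was 0.59.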

How the results depend on the processing

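The number of genes past the threshold stayed within 1.5 times the value given for every comparison and alternative run, at 9855 to 13252 for etoposide in Null, 9533 to 12320 for etoposide in DKO, 9197 to 10370 and 9549 to 11349 for DKO against Null without and with etoposide, and 7686 to 8789 for the interaction, and, in the same order, at 11871 to 12414, 10730 to 11689, 9622 to 10267, 10858 to 11388 and 7654 to 8027 when a library was left out. With library size alone the members moved by more than their spread between replicates: Rn45s to 0.82 for etoposide in DKO, Rmrp to 0.72 in Null and 0.39 in DKO, and Rpph1 to 0.43 in Null, 0.35 in DKO and -0.23 in DKO against Null untreated. The interaction of Rn45s, 0.05, was -0.008 with DESeq2 size factors and with DESeq2, and -0.038 to 0.17 when a library was left out, all within its spread of 0.313. With all reads listed as the denominator, mean shares in untreated Null, untreated DKO, etoposide-treated Null and etoposide-treated DKO were 1.52%, 1.14%, 2.24% and 1.89% for Rn45s, 0.498%, 0.372%, 0.773% and 0.461% for Rmrp, and 0.416%, 0.380%, 0.526% and 0.456% for Rpph1; the larger denominator lowers every one. Of named genes past the threshold before or after it, those that changed sign with library size alone were Pop7 (0.049), Polr3b (0.227) and Heatr1 (0.177) for etoposide in DKO, Rpp14 (0.118) for etoposide in Null and Gtf3c1 (-0.115) for DKO against Null untreated. With the replicate block 12111, 11416, 10171, 11274 and 8208 genes passed in the 5 comparisons. Where no cause is given, it was not tested. Depth limits Rpp25, Rprl1 and Rnu73b, each under 1 CPM on average.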
